A study of Mus musculus with 2 samples.

Results

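Mir378a, Mir191 and Mir425 are 3 microRNA (miRNA) genes that were followed in small RNA libraries of mouse stomach. They are 3 of 300 strand-specific features at a mean of 10 CPM or more, drawn from tables of 1973 rows. CPM are reads scaled to a common library total, here the sense-assigned reads. Reads opposite to a row are scaled by that total without being part of it. Here a feature is the set of reads on 1 strand of a row of the count tables. Mir425 has a row of its own, and its reads were taken from the strand with the larger total. Mir378a and Mir191 have none, so they were read from the strand opposite to the rows Gm25301 and Gm24083, whose intervals cover their hairpins. The members were chosen by these strand counts, and their levels and strand splits are therefore a description with no test.

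Both libraries form 1 group, stomach pooled from healthy male and female B6NCrl embryos at 16.5 days of gestation, with no treatment named. Replicate 2 came from 41 embryos, and the labels give no number for replicate 1. Both carry the same donor label, which does not show whether they came from 1 pool or from separate pools. The spread is therefore that between 2 libraries of pooled stomach, and no contrast of conditions exists. The libraries held 7734578 and 7983714 reads in the sense direction of the counted genes, and a further 268011 and 231856 on the opposite strand. The smooth muscle genes of the stomach wall, Mir143 and Mir145a, stood at a summed 202084 and 197398 CPM in replicates 1 and 2.

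A miRNA is cut from the stem of a hairpin transcript, and 1 arm of the stem usually guides Argonaute to messenger RNAs through its seed, bases 2 to 8. Mir378a lies inside Ppargc1b, which encodes PGC-1beta, a coactivator of genes for mitochondrial and fatty acid metabolism, and it is known from fat, heart and skeletal muscle. Mir191 and Mir425 lie side by side and are found in many tissues, blood cells among them. miR-191 is often used as a reference in measurements of other miRNAs.

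The hairpins and arms of the neighbours Mir191 and Mir425 are shown because their reads are counted per hairpin, so that both arms of each add to 1 value. Sequences are from RefSeq on GRCm38.p6, a patch release of the assembly that mm10 names. Mir191 occupies chr9:108568319-108568392 and Mir425 chr9:108568777-108568861, both on the plus strand, and capitals mark the mature arms.
Mir191 hairpin: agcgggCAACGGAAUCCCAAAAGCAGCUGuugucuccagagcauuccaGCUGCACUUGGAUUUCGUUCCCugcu
Mir425 hairpin: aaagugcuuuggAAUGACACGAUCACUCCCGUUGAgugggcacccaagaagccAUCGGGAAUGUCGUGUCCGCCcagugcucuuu
The mature arms follow, with the seed in capitals.
miR-191-5p: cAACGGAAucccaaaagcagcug
miR-191-3p: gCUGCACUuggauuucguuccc
miR-425-5p: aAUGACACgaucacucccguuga
miR-425-3p: aUCGGGAAugucguguccgcc
The 4 seeds differ from each other, so proximity of the genes is not matched by a shared seed. Both mature arms of Mir191 lie inside the Gm24083 interval that was counted. No stretch of 18 bases of any of the 4 arms occurs in another hairpin of the RefSeq table. Among GENCODE M21 transcripts such stretches occur only in the miRNA itself and in the long noncoding transcript 4833445I07Rik around it.

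The hairpins are alike in base composition and differ in predicted stability. G and C make up 54.1% of either, against a median of 51.7% over 1005 RefSeq mouse hairpins. Mir191 spans 74 bases and Mir425 85, with a median of 79 over the same hairpins. The minimum free energy computed by RNAfold was -35.0 kcal/mol for Mir191 and -31.7 kcal/mol for Mir425. Per 100 bases this is -47.3 kcal/mol for Mir191, lower than in 77.6% of the hairpins, and -37.3 kcal/mol for Mir425, lower than in 35.6%.

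In GENCODE M21, Mir191 and Mir425 are hosted by 4833445I07Rik on chromosome 9, from 108567533 to 108569174 on the plus strand, and not by Dalrd3. Dalrd3 begins 1024 bases after the end of Mir425, at 108569886 on the same strand. Both hairpins lie in the single exon of the transcript 4833445I07Rik-201. In the spliced transcript 4833445I07Rik-202, Mir191 falls in intron 1, and Mir425 starts just beyond the end of the transcript, with 2 bases between them. The hairpins are 384 bases apart. Gm24083 covers Mir191 on the minus strand from 108568295 to 108568414, which leaves 24 bases of the interval on 1 side of the hairpin and 22 on the other.

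**Figure D1:**
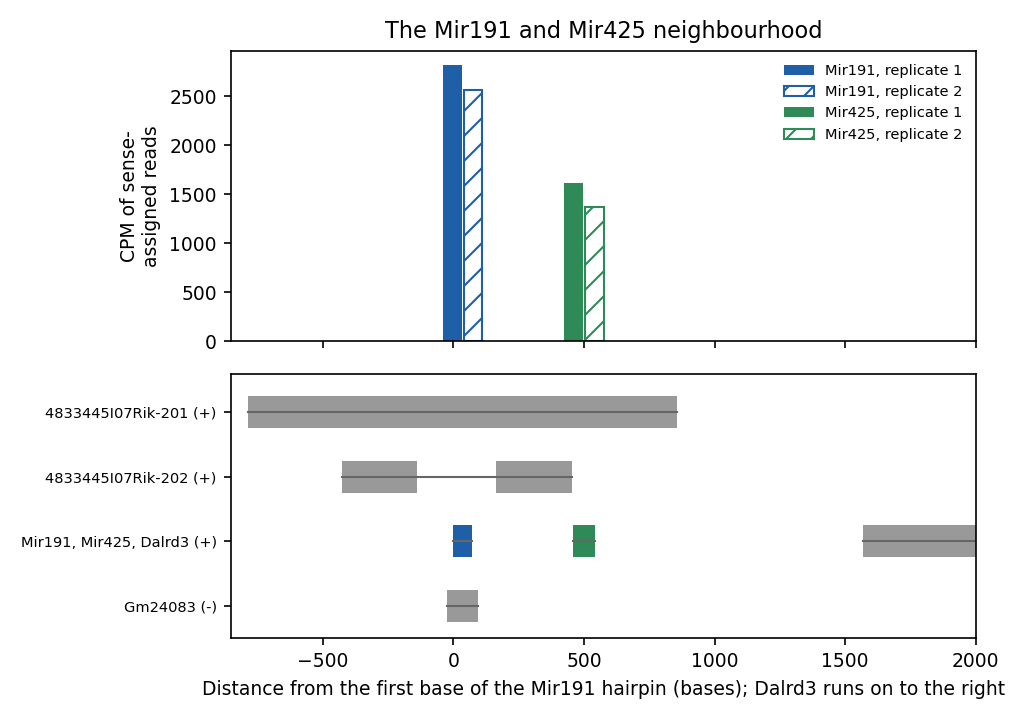
The upper panel shows the level of Mir191 and Mir425 in each library (CPM of sense-assigned reads, bars from 0), and the lower panel the annotated transcripts and genes by distance in bases from the first base of the Mir191 hairpin. The Mir191 bars reach 2820 and 2560 CPM, the Mir425 bars 1617 and 1374 CPM, and both hairpins lie within the exon of 4833445I07Rik-201.

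Nearly all reads at the 3 rows came from 1 strand. At Gm24083, 21812 reads in replicate 1 and 20437 in replicate 2 lay opposite to the row, in the direction of Mir191. The row's own strand held 3 reads in replicate 1, or 0.0138% of the reads there (exact Clopper-Pearson 95% upper bound 0.0402%). It held 0 reads in replicate 2, with an upper bound of 0.0180% by the same method. Mir425 is the mirror case, with 12507 and 10967 reads in its own direction and 0 on the other strand (upper bounds 0.0295% and 0.0336%). A table of sense reads alone therefore shows Mir425 in full and 3 reads at the Mir191 hairpin. These bounds and the intervals below cover counting error only.

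Mir191 stood at 2820 CPM in replicate 1 and 2560 CPM in replicate 2, a mean of 2690 ± 184 CPM (SD, n = 2). Mir425 stood at 1617 and 1374 CPM, a mean of 1495 ± 172 CPM (SD, n = 2). Every Mir191 value was above every Mir425 value, and the gap between the means was 6.49 times the larger SD. Of the reads assigned to a row on either strand, Mir191 held 0.273% (exact Clopper-Pearson 95% interval 0.269% to 0.276%) in replicate 1 and 0.249% (0.245% to 0.252%) in replicate 2. Mir425 held 0.156% (0.154% to 0.159%) and 0.133% (0.131% to 0.136%). Per 100 bases of hairpin, the mean levels were 3635 CPM for Mir191 and 1759 CPM for Mir425, in the same order.

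Within a library, Mir191 had 1.74 reads for each Mir425 read in replicate 1 and 1.86 in replicate 2. The ratio was thus 0.936 times as large in replicate 1 (95% interval 0.906 to 0.966). A two-sided Fisher's exact test of the read counts gave p = 4.95e-05, and the same value after Benjamini-Hochberg adjustment over the 3 pairs of members. The shift is beyond counting error and small in size. This ratio is free of any scaling between libraries.

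Mir378a was the most abundant of the 3 members. Opposite to Gm25301 lay 85420 reads of replicate 1 and 69390 of replicate 2. The 0 reads on the own strand of Gm25301 have exact Clopper-Pearson 95% upper bounds of 0.00432% and 0.00532%. Its level was 11044 CPM in replicate 1 and 8691 CPM in replicate 2, a mean of 9868 ± 1663 CPM (SD, n = 2), above both other members in each library. Its share of the reads assigned on either strand was 1.067% (exact Clopper-Pearson 95% interval 1.060% to 1.075%) and 0.845% (0.838% to 0.851%). Of all reads on the opposite strand of any row, Mir378a made up 31.9% and 29.9%, and Mir191 8.14% and 8.81%.

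On the minus strand of chromosome 18, the Mir378a hairpin spans bases 61397835 to 61397900 of GRCm38, in intron 1 of all 3 Ppargc1b transcripts that overlap it. The nearest exon upstream is 2389 bases away and the nearest downstream 7748 bases. Gm25301 covers it from 61397813 to 61397925 in the plus direction. Of the other features at 10 CPM or more, the closest to it was Mir145a at a distance of 249924 bases, against 384 bases between Mir191 and Mir425.

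For each Mir191 read there were 3.92 Mir378a reads in replicate 1 and 3.40 in replicate 2. The change between libraries was 1.15-fold (95% interval 1.13 to 1.18; two-sided Fisher's exact test, adjusted p = 5.51e-38 over the 3 pairs). For each Mir425 read there were 6.83 and 6.33 Mir378a reads, a change of 1.08-fold (1.05 to 1.11; adjusted p = 8.26e-08 by the same exact test). Per base of hairpin, Mir378a stood 4.39 and 3.81 times above Mir191 and 8.80 and 8.15 times above Mir425. The order Mir378a, Mir191, Mir425 held in both libraries by reads and per base.

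**Figure D2:**
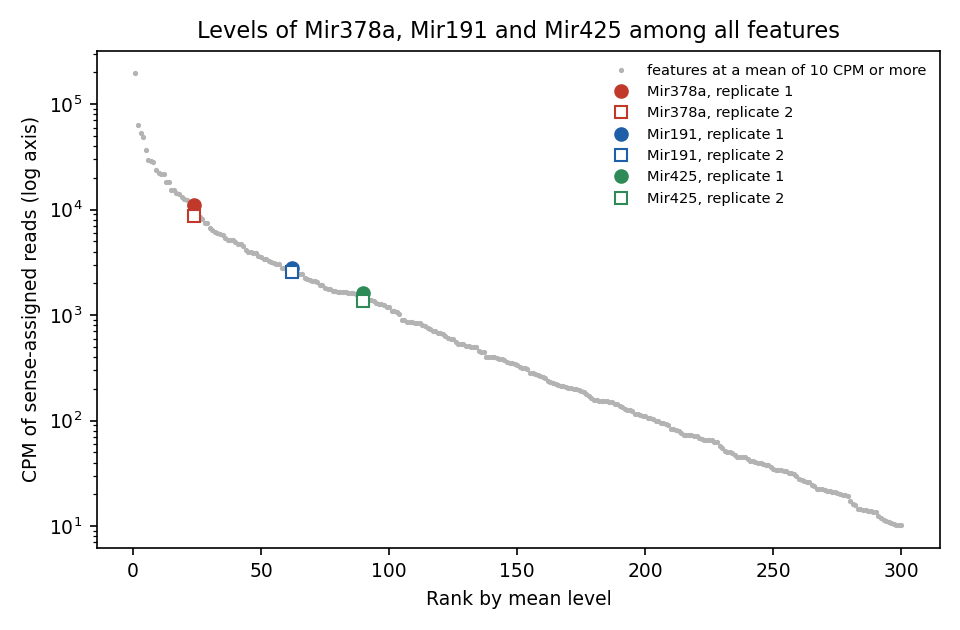
Mean level (CPM of sense-assigned reads, log axis) against rank for the 300 features at a mean of 10 CPM or more (grey), with filled circles for replicate 1 and open squares for replicate 2 of each member. Mir378a sits at rank 24, Mir191 at rank 62 and Mir425 at rank 90, and the 2 libraries of each lie close together.

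Among the 300 features, Mir378a ranked 24 by mean level, with ranks of 22 and 24 in replicates 1 and 2. Next above it were Mir411, Mir205 and Mir375 at 12259 ± 563, 11125 ± 331 and 11125 ± 1179 CPM (SD, n = 2). Next below were Mir200b, Mir127 and Mir98 at 9392 ± 1997, 8433 ± 717 and 8074 ± 453 CPM. Mir200b belongs to an epithelial family and Mir375 to endocrine cells. For 4 of these 6 neighbours the gap to Mir378a was smaller than the larger SD of the pair, the exceptions being Mir411 and Mir98. The order against Mir375 differed between the libraries.

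Mir191 ranked 62 by mean level and 61 in each library. It followed Mir18, Mir183 and Mir423 at 2795 ± 91.3, 2779 ± 672 and 2697 ± 135 CPM (SD, n = 2), and preceded Mir296, Mir27b and Mir342 at 2530 ± 237, 2487 ± 153 and 2462 ± 266 CPM. All but Mir27b were closer to Mir191 than the larger SD, and for 3 of the 6 the order differed between libraries. Mir425 ranked 90, and 88 and 86 in the single libraries. Its neighbours were Mir140, Mir467d and Mir122 above, from 1590 down to 1516 CPM, and Mir192, Mir708 and Mir532 below, from 1479 down to 1379 CPM. All 6 were closer to Mir425 than the larger SD, and for Mir122 and Mir192 the order differed between libraries.

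The family of Mir378a and the seed mate of Mir425 had few counted reads. The mature sequences are shown with the seed in capitals, to compare where the relatives differ. Mir378a is not among the sequences compared.
miR-378b: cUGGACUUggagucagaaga
miR-378c: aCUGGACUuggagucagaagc
miR-378d: aCUGGCCUuggagucagaaggu
miR-425-5p: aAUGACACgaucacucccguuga
miR-489-3p: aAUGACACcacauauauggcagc
miR-378b and miR-378c share a stretch of 19 bases, and each shares 14 with miR-378d. miR-489-3p has the seed of miR-425-5p and the same first 8 bases, and no other mature miRNA in the table carries that seed. The seeds of miR-191-5p, miR-191-3p and miR-425-3p occur in no other mature miRNA of the table.

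Mir378b, on chromosome 11 from 88352773 to 88352864, had 24 and 18 reads in replicates 1 and 2, or 3.10 and 2.25 CPM. Mir378c, on chromosome 14 from 46954830 to 46954928, had 113 and 107 reads, a mean of 14.0 ± 0.854 CPM (SD, n = 2). Mir378d, on chromosome 10 from 126710282 to 126710391, had 152 and 119 reads, a mean of 17.3 ± 3.36 CPM. Mir378a held 99.66% of the reads of the 4 family genes in replicate 1 and 99.65% in replicate 2. Per 100 bases of hairpin Mir378a reached 14951 CPM, and Mir378d, the highest of the other 3, reached 15.7 CPM. Reads placed in several positions, 25.1% and 25.2% of all reads, form a total of their own and belong to no row. Low values of Mir378b and Mir378c, which share 19 bases, are therefore uncertain. What Mir378a shares with the other 3 was not measured, so the split of reads among the 4 genes is uncertain too.

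Mir489, on chromosome 6 from 3721897 to 3722003, had 5 reads in replicate 1 and 1 in replicate 2, on either side of the 3 counts taken as the floor. Mir425 thus supplied nearly all counted reads of hairpins whose arms carry this seed. The arms of Mir425 were not told apart, so how many of its reads were miR-425-5p was not measured.

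**Figure D3:**
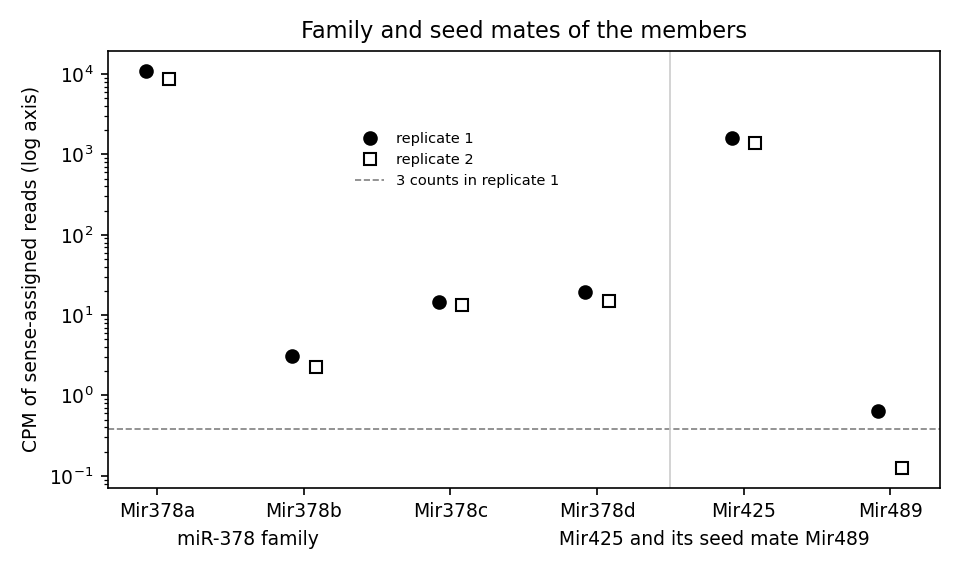
Level (CPM of sense-assigned reads, log axis) of the 4 miR-378 family genes and of Mir425 with its seed mate Mir489, with filled circles for replicate 1, open squares for replicate 2 and a dashed line at 3 counts in replicate 1. Mir378a is at 11044 and 8691 CPM, while Mir378b, Mir378c and Mir378d lie between 2.25 and 19.7 CPM, and Mir489 has 1 value on each side of the line.

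The libraries were then compared for every feature, with the trimmed mean of M values (TMM) as the scaling. The aim was to see how evenly the members appeared in both libraries. Mir378a had a log2 ratio of replicate 1 over replicate 2 of 0.20 (95% interval 0.19 to 0.22), or 1.15-fold. Mir425 had a log2 ratio of 0.09 (0.06 to 0.13), or 1.07-fold. For Mir191 the log2 ratio was -0.00290 (-0.0305 to 0.0247). A two-sided exact binomial test with Benjamini-Hochberg adjustment over the 300 features gave adjusted p = 1.15e-166 for Mir378a, 1.64e-06 for Mir425 and 0.855 for Mir191.

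With at least 2-fold required as well, 0 of the 3 members were called, against 7.67% of all features, 22 higher and 1 lower in replicate 1. With no minimum fold, 2 of 3 members passed, against 78.3% of all features, so passing at these depths does not set Mir378a and Mir425 apart. With TMM scaling, only 1 of the 300 features had a ratio nearer to 1 than Mir191. The share with a smaller absolute log2 ratio was 24.3% for Mir425 and 44.7% for Mir378a. The SD of the log2 ratio was 0.63 over all features, larger than each member's ratio, and edgeR estimated a coefficient of variation of 0.294 over the 289 sense features. The test covers counting error between these 2 libraries and no spread among animals.

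The sign for Mir191 depended on the scaling. With total sense-assigned reads its log2 ratio was 0.14, and with DESeq2 size factors it was -0.05, with adjusted p = 0.000274 by the same exact test, while Mir378a and Mir425 stayed above 0 under both. Total-read scaling moved the median of all features from 0.06 to 0.20, and relative to that median Mir191 was lower and Mir378a, at 0.35, higher.

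**Figure D4:**
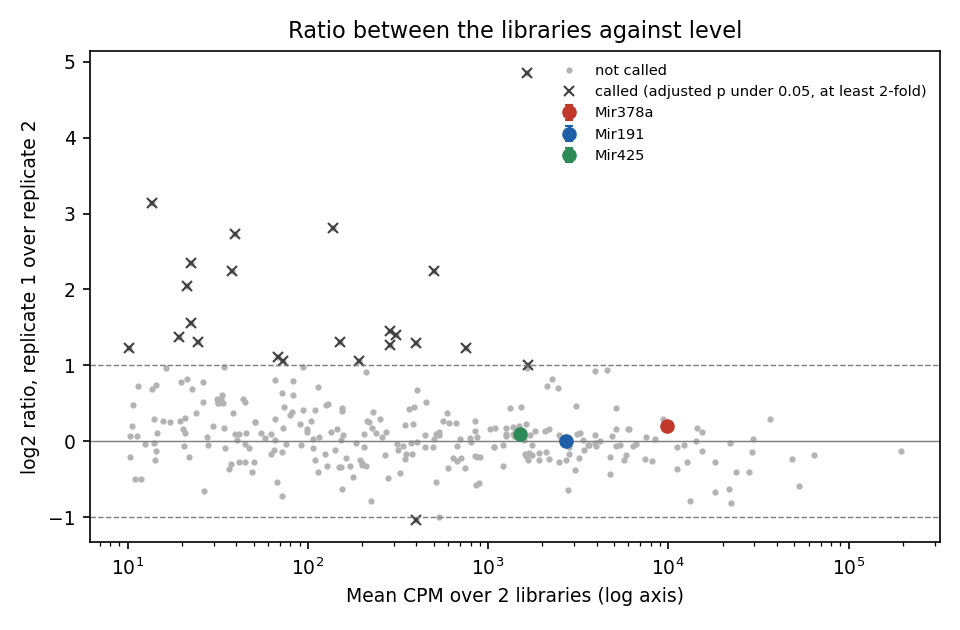
Log2 ratio of replicate 1 over replicate 2 against mean level (CPM, log axis) for the 300 features, with crosses for called features, dashed lines at 2-fold and the members in colour with 95% intervals that are narrower than the symbols. Mir191, Mir425 and Mir378a lie at -0.00290, 0.09 and 0.20, well inside the dashed lines.

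Features with the nearest ratio were sought among the 104 at 1000 CPM or more, a likeness that rests on 2 libraries alone. Closest to Mir378a were Mir192, Mir532 and Mir467e, with log2 ratios of 0.20, 0.19 and 0.22. Closest to Mir191, with log2 ratios of 0.000093, 0.01 and 0.01, were Mir200c, Mir369 and Mir467d. Closest to Mir425 were Mir337, Mir298 and Mir154, with log2 ratios of 0.10, 0.09 and 0.10. Neither neighbour was among the nearest to the other.

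Mir191 and Mir425 were set beside all 108 pairs of neighbouring features on the same strand within 10 kb. Their levels differed 1.80-fold, and 15.7% of the pairs were closer in level. The median pair differed 5.29-fold and the widest, Mir99a with Mirlet7c-1, 421-fold. Reads with several positions are in no row, so hairpins that share a mature sequence with others may be counted low. The folds of such pairs, and with them the median and the place of Mir191 with Mir425, are uncertain. The arms of Mir191 and Mir425 share no stretch of 18 bases with another hairpin, but the other pairs were not checked for this. The pairs next to them by this measure were Mir541 with Mir409, Mir27a with Mir24-2 and Mir188 with Mir532 on the closer side, from 1.58-fold to 1.63-fold. Those next on the wider side were Mir181d with Mir181c, Mir221 with Mir222 and Mir92-2 with Mir20b, from 1.80-fold to 1.86-fold. Between the libraries, the log2 ratios of Mir191 and Mir425 differed by 0.096, and 19.4% of pairs differed less, with a median of 0.23. Pairs of 1 cluster share a transcript and are not independent, so these places carry no test.

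**Figure D5:**
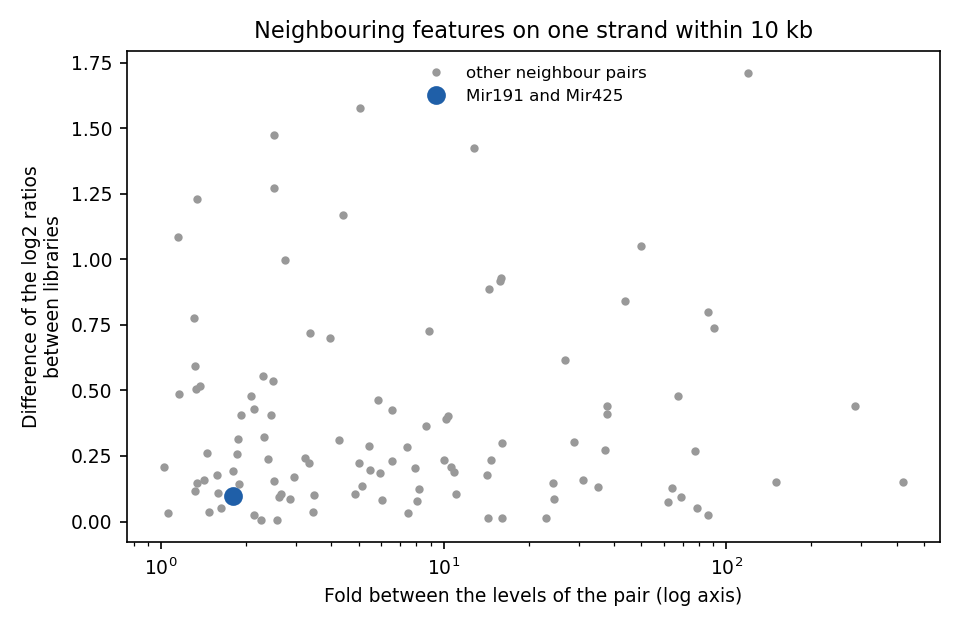
Each point is a pair of neighbouring features on 1 strand within 10 kb, both at a mean of 10 CPM or more, by the fold between their levels (log axis) and the difference of their log2 ratios between libraries. Mir191 with Mir425 lies toward the lower left, at 1.80-fold and 0.096, against medians of 5.29-fold and 0.23. Folds of pairs whose hairpins share a mature sequence with others are uncertain.

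The reads opposite to annotated rows formed 11 features at 10 CPM or more, and Mir378a was the highest and Mir191 the fifth. Those at 1000 CPM or more in both libraries were Mir378a, Mirlet7e at 5959 CPM, Mir409 at 5104 CPM, Mir376a at 3123 CPM, Mir191, Mir299a at 2061 CPM and Mir142 at 1317 CPM. By the same exact binomial test and the 2-fold requirement, 0 of the 11 were called, against 7.67% of all features. Their log2 ratios ran from -0.54 for Mir24-1 to 0.43 for Mir142, with 7 of 11 above 0.

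Some markers of other tissues differed between the libraries, and only in the striated muscle list were most of the tested genes called. Of the 10 striated muscle genes, 4 were high enough to test and 3 were called higher in replicate 1, against 7.67% of all features. The summed level was 3364 CPM in replicate 1 and 206 CPM in replicate 2. Mir206, of skeletal muscle, had 24624 and 797 reads, a 28.9-fold difference, Mir133b a 8.83-fold one and Mir499 a 5.10-fold one. Mir208b, of the slow myosin gene Myh7, had 851 and 712 reads, a ratio of 1.12. The miR-1 genes of heart and skeletal muscle had few reads, 4 and 3 for Mir1a-1, 6 and 11 for Mir1a-2 and 8 and 22 for Mir1b, the last 2 with more in replicate 2. Mir208a had 35 and 25 reads. Mir133a-1 and Mir133a-2 had 0 reads, but these copies share a mature sequence, and reads with several positions are in no row. The low counts of Mir1a-1 and Mir1a-2, likewise copies of 1 miRNA, are uncertain for the same reason. Mir378a, itself known from muscle, was 1.15-fold higher in replicate 1 beside this 28.9-fold difference, and the part of muscle in its level was not tested.

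Of the 4 brown fat genes 2 were tested and 1 was called higher in replicate 1, against 7.67% of all features called. This was Mir193b, with 1900 and 252 reads, a 7.04-fold difference, while Mir455 had 12262 and 13123 reads. The summed level of the list was 1836 and 1679 CPM. All 4 erythroid genes had a row and 3 were tested. Of these only Mir451a was called, against the same 7.67%, and it was 2.35-fold higher in replicate 1 with 8396 and 3336 reads. Mir144 had 1073 and 1273 reads, and Mir486, the row of miR-486a, had 122 and 106 reads. Mir3107, the row of miR-486b, had 31 and 9 reads, too few to test. What Mir486 and Mir3107 share was not measured, and reads with several positions are in no row, so their counts are uncertain. The erythroid list summed to 1244 and 592 CPM. Of the 6 leukocyte genes 5 were tested and 0 were called, against 7.67% of all features. With so few genes, 0 calls do not set this list apart. Mir142, Mir150, Mir155, Mir223 and Mir146, the row of miR-146a, had folds of 1.35, 1.42, 1.22, 0.963 and 1.04, and Mir142b had 0 sense reads. The leukocyte list summed to 3054 and 2412 CPM.

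Beside these differences in blood cell genes, Mir191 and Mir425, known from blood cells among others, had ratios of 0.998 and 1.07. These ratios and the folds are TMM-scaled, while the list sums are CPM without that scaling. By CPM, Mir191 stood at 2820 and 2560 and Mir425 at 1617 and 1374 in replicates 1 and 2. The liver gene Mir122 had 14085 and 9661 reads, a ratio of 1.36 that was not called. The 2 smooth muscle genes were not called either, against 7.67% of all features, with ratios of 0.915 for Mir143 and 1.90 for Mir145a. The part of any of these tissues in the members' levels was not tested. In pooled tissue, fewer cells of a type and less RNA per cell cannot be told apart.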

How the data were processed

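The 2 libraries hold small RNA of pooled stomach, below 30 nucleotides per the labels. The authors deposited raw read counts per gene without regard to strand and for each strand, aligned to mm10 and counted on GENCODE M4 per the headers of the text files deposited beside them. Aligner, counter and trimming: not given in the sources used here. Symbols and places came from GENCODE M21 on GRCm38, where 1894 of 1973 rows matched, and sequences from RefSeq GRCm38.p6, whose synonyms resolved marker names absent from GENCODE. The strand with the larger total over all genes was taken as sense.

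Levels are CPM of sense-assigned reads. For ratios, libraries were scaled by TMM (edgeR 4.0.16, R 4.3.3) with 0.5 added to each count. Every row gave a feature per strand. The 300 at a mean of 10 CPM or more, 289 sense and 11 opposite, were compared by a two-sided exact binomial test with Benjamini-Hochberg adjustment, called at an adjusted p under 0.05 and at least 2-fold. The test was checked on simulated data that held counting error only, so the check does not cover any further spread between libraries. The interval of a change in a pair's ratio is a normal one on the log scale, and the p is from Fisher's exact test. DESeq2 1.42.0 gave other size factors. RNAfold 2.7.2, Python 3.11.15 and scipy 1.17.1 did the rest. The floor of 3 counts is 0.388 and 0.376 CPM.

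The members, lists and tests were chosen with earlier results of these data known. Named beside the members were miR-378 relatives and seed mates, the 3 nearest features on each side in level, the 3 nearest in ratio at 1000 CPM or more, the 3 nearest neighbour pairs on each side, marker genes, and opposite-strand features at 1000 CPM or more. Mir24-1 was named after its value was seen.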

Additional observations from a re-analysis of the deposited data

How the results depend on the processing

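Of the log2 ratios between libraries, that of Mir191 changed sign, to 0.14 with total sense-assigned reads and 0.13 with the total of both strands. Those of Mir378a and Mir425 kept theirs under every scaling, and with no minimum fold they passed at 0.20 and 0.0927. TMM over genes at 10 CPM or more, added after seeing the data, gave 0.16, -0.04 and 0.05 for Mir378a, Mir191 and Mir425. The count of features that differed, 23, became 55 over every feature with a read, 12 at a mean of 100 CPM or more and 235 with no minimum fold. Called features were 95.7% higher in replicate 1, against 61.8% over every feature with a read and 56.2% with no minimum fold. Over all reads of the library, Mir378a, Mir191 and Mir425 stood at 4886, 1333 and 741 CPM, and without Mir143 in the total at 12272, 3345 and 1860 CPM. Per 100 bases of the counted interval, Mir191 and Mir425 stood at 2242 and 1759 CPM. The denominators set these shifts, and the order of members held in each. The share of neighbour pairs closer in level than Mir191 and Mir425 was 17.6% within 1 kb and 19.2% at 100 CPM or more. Leaving out either library gave the level of the other, with no spread. The changes of pair ratios kept their sign and call when strand was ignored. This was bound to hold and is no check, since ignoring strand added only 3 reads, all at Gm24083 in replicate 1. With 2 libraries of 1 group, an SD rests on a single difference. No paired analysis was possible because there is 1 group.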

Other observations

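In the annotation, 32 rows of the count tables overlap a miRNA gene on the other strand for which the tables have no row, and 26 of them held reads in that direction. Adding these features changed which hairpins had a counted neighbour. Of the 108 neighbour pairs, 14 included such a feature, Mir191 with Mir425 among them, with a median fold in level of 2.56 against 5.67 for the other 94. The pairs were gathered after their values were seen, several share a hairpin, and no test was made. Because reads with several positions are in no row, both medians are uncertain. Mir497 and Mir195a, 225 bases apart by the counted intervals, stood at 673 and 638 CPM and differed 1.06-fold. Mirlet7e and Mir125a, members of 1 cluster with Mir99b, differed 1.31-fold in level, at 5959 and 4563 CPM, but their log2 ratios between libraries differed by 0.78. The widest such pair was Mirlet7d with Mirlet7f-1, at 86.2-fold. Mirlet7f-1 has relatives with the same mature sequence, so its level of 153 CPM is uncertain.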
